A study of Aspergillus oryzae with 8 samples.

Results

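The comparison described here is the difference of 2 effects: what dithiothreitol (DTT) did to each transcript of Aspergillus oryzae RIB40 on agar, minus what it did in liquid culture. It takes in all 8 libraries and every gene, and of the 11880 genes listed 9438 passed the filter on low counts and were tested. A. oryzae is a filamentous fungus used in food fermentation, and RIB40 was the 1 strain sequenced. The 4 conditions, with 2 libraries each, were mycelium from agar with 20 mmol/L DTT, mycelium from agar without DTT, mycelium from liquid with 20 mmol/L DTT and mycelium from liquid without DTT. All shared the same mineral medium with glucose, nitrate and iron sulfate, and the controls had grown for 40 h, on cellophane over agar or in shaken flasks. The labels give no time of exposure to DTT. They also treat the cultures differently: on agar the cellophane carrying the mycelium was lifted onto filter paper wetted with DTT medium, whereas in liquid DTT went straight into the flask. An effect of that transfer, or of unequal exposure, cannot be told apart from an effect of the culture.

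DTT reduces disulfide bonds and thereby prevents secreted proteins from folding in the endoplasmic reticulum (ER). Fungi answer with the unfolded protein response, in which the transcription factor HacA, made from an unconventionally spliced mRNA, raises chaperones and folding enzymes of the ER. Genes of secreted enzymes, sugar and nitrogen uptake, metal uptake and secondary metabolism are also known to depend on whether a filamentous fungus grows on a surface or submerged, so a common stress can meet different starting levels.

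Below, a level is given in CPM (counts per 1000000 reads, scaled between libraries by the TMM factors of edgeR), with replicate 1 before replicate 2 of a condition. An effect is the log2 fold change of DTT over control within a culture, ± SE, and the difference is the effect on agar minus the effect in liquid. A positive difference therefore means that DTT raised a transcript more, or lowered it less, on agar. A gene was called where its p from the quasi-likelihood test of edgeR was under 0.05 after Benjamini-Hochberg (BH) adjustment over all tested genes. Replicate 1 was read from 500 bp fragments and replicate 2 from 200 bp fragments in every condition, so a second fit took the insert size as a block, and a value from it is named as such. The labels do not state that both libraries of a condition came from separate cultures, and p-values then reflect only the spread between libraries, which could be purely technical. In bulk RNA, fewer hyphae of a kind and less RNA per hypha cannot be told apart.

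The libraries held 5880753 to 8912897 reads assigned to genes, of which 8.21% to 37.6% lay on rRNA genes, with the highest share in agar DTT replicate 1. Genes were covered over a median of 68.0% to 77.0% of their length in replicate 1 and 94.7% to 95.4% in replicate 2. A count of 3 reads corresponded to 0.270 to 0.678 CPM. Only 695 tested genes carry a symbol in the reference, and the others are named by locus tag, with no function given.

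Across the genome the effects of DTT in the cultures were alike in direction, and no gene was called for the difference without the block. The smallest BH-adjusted p of edgeR was 0.0799, for the siderophore transporter gene sit1. Of the 9438 genes 0% were thus called, while 1003 (10.6%) had an unadjusted p under 0.05, 550 above 0 (5.83%) and 453 below 0 (4.8%). With other tools, DESeq2 called 220 genes and limma-voom called 1, again sit1. With the insert size as a block edgeR called 23 genes (0.244%), 14 with a difference above 0 (0.148%) and 9 below 0 (0.0954%). The differences of those 23 were between 3.28 and 11.9 in size, and each had the same sign in both insert sizes. Choosing genes by p largely fixes that sign: it was the same in 995 (99.2%) of the 1003 genes with an unadjusted p under 0.05. The shared sign is therefore no separate support. The count with the block depended on single libraries: it was 0 without agar DTT replicate 2 or without agar control replicate 1, and 249 without liquid DTT replicate 2.

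The median difference over all genes was 0.06, with quartiles of -0.66 and 0.77. In 5936 genes (62.9%) the effects lay within 1 log2 unit of each other, and in 627 (6.64%) they lay more than 3 apart. The median SE was 0.83 for the difference, against 0.59 for the agar effect and 0.59 for the liquid effect, so a difference had to be larger than a single effect to be called. Across genes the agar effect and the liquid effect, which share no library, correlated at r = 0.64 (Spearman's rho 0.66). The difference taken within the 500 bp libraries correlated with that within the 200 bp libraries at r = 0.49 (rho 0.43), and 6126 genes (64.9%) had the same sign in both. Genes are not independent replicates, and these correlations are descriptions.

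**Figure D1:**
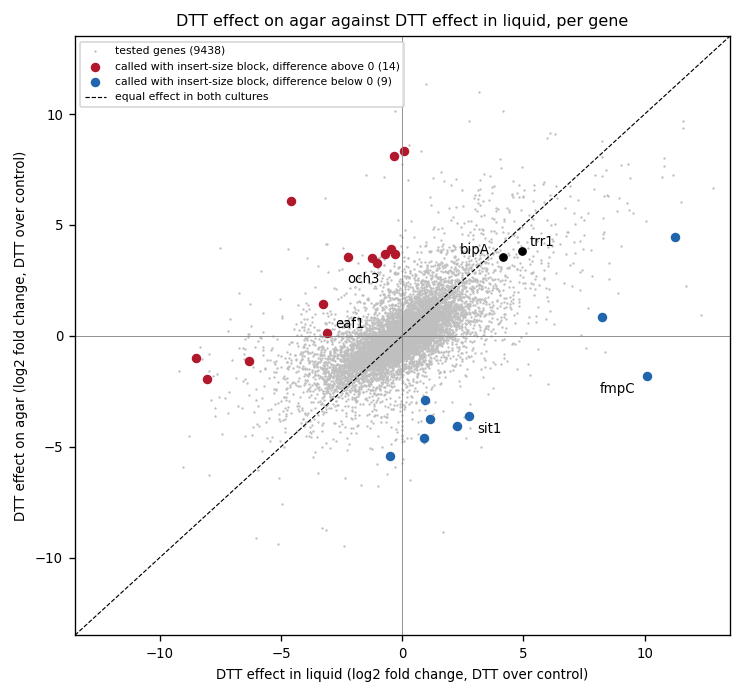
Effect of DTT on agar (vertical axis, log2 fold change of DTT over control) against that in liquid (horizontal axis, same unit), 1 point per tested gene. The 14 red and 9 blue genes are those called for the difference with the insert-size block, while the ER chaperone gene bipA and the thioredoxin reductase gene trr1 lie close to the dashed line of equal effects.

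The scatter of agar effects against liquid effects shows where the calls of each culture fell. DTT changed 878 genes on agar (9.3% of those tested, 4.86% up and 4.44% down) and 1885 genes in liquid (20%, with 8.91% up and 11.1% down). The agar count was 6 without agar control replicate 1 and the liquid count 614 without liquid control replicate 1. Of the called genes, 520 changed in the same direction in both cultures, 273 up and 247 down. A further 357 were called on agar only and 1364 in liquid only. Genes called in 1 culture mostly pointed the same way in the other. Of those called on agar only, this held for 138 of 171 that fell (80.7%) and 154 of 186 that rose (82.8%). Of those called in liquid only, it held for 717 of 797 that fell (90%) and 519 of 567 that rose (91.5%). Among the 7196 genes called in neither culture 70.4% had the same sign in both. The difference itself had an unadjusted p under 0.05 in 42.1% and 43% of the genes that fell or rose on agar only, and in 34.9% and 33.5% of those that fell or rose in liquid only. The same contrasts sorted the genes into these classes, so the shares are descriptions. Among the 247 genes that fell in both cultures 172 had the larger effect in liquid, and among the 273 that rose in both 134 did.

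A single gene, sit1, was called in both cultures in opposite directions. With the block the 2 effects drew 1897 calls on agar (20.1%, with 9.96% up and 10.1% down) and 2984 in liquid (31.6%, with 14.2% up and 17.4% down). With it 16 genes then had opposite calls, 8 lower on agar and higher in liquid and 8 the other way. Of these 16 genes, 6 were also called for the difference with the block.

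For the folding machinery of the ER no difference between the cultures was detectable. BipA, the Hsp70 chaperone of the ER lumen, is the classical marker of the unfolded protein response. Its transcript stood at 8445.2 and 9308.9 CPM in agar DTT, 728 and 801 CPM in agar control, 5632.3 and 8549.9 CPM in liquid DTT, and 312 and 483 CPM in liquid control. The treated libraries were far above the controls in both cultures without overlap. The difference for bipA was -0.62 ± 0.997 (-0.92 to -0.29 with 1 library left out), that for the protein disulfide isomerase gene pdiA -0.39 (-0.68 to -0.03) and that for the calnexin gene clxA -0.14. None of these 3 had an unadjusted p under 0.05, which does not show that the effects were equal. Genes without a clear difference also included treA (AO090120000052) of trehalose breakdown, which fell in both cultures. It stood at 8.16 and 11.1 CPM in agar DTT, 207 and 249 CPM in agar control, 1.13 and 1.37 CPM in liquid DTT, and 28.7 and 78.3 CPM in liquid control, a difference of 0.83 ± 0.76, or between -0.03 and 1.38 with 1 library left out. The transcription factor gene hacA had a difference of 0.12. The thioredoxin reductase gene trr1, whose product keeps thioredoxin reduced, had one of -1.11 (-0.51 without liquid DTT replicate 1), and the catalase gene cat1 one of -0.05. Leaving out 1 library at a time placed the difference for cat1 between -0.57 and 0.77 and that for clxA between -0.70 and 0.75, so neither has a settled sign. None of 5 genes of ER-associated degradation and none of 15 proteasome genes had an unadjusted p under 0.05, with median differences of 0.25 and 0.22 against 0.06 over all genes. Over all genes 10.6% had such a p, so finding none in lists this small does not show that the effects were equal.

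Iron acquisition was the group with the lowest median difference of the 24 lists. Aspergillus species take up iron by a reductive system, in which a ferroxidase feeds an iron permease, and by siderophores, small iron chelators that are made by peptide synthetases, secreted, and taken back by transporters. Of 12 tested genes 11 had a difference below 0, and 7 had an unadjusted p under 0.05, all of them below 0 (4.8% of all genes). The median was -2.97, against 0.06 over all genes, and it was -4.35 within the 500 bp libraries and -1.98 within the 200 bp libraries. On agar 5 of the 12 fell under DTT (sit1, mirB, sidJ, sit2 and mirD), against 4.44% of all genes, while in liquid 1 of 12, sit1, rose, against 8.91% of all genes. With the block 9 of the 12 fell on agar (10.1% of all genes), with fetC, sidH, sidD and sidC added, and 2 rose in liquid (14.2%), with mirC added. All 24 lists were chosen with earlier results of these data known, so their counts and medians are descriptions.

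The transporter gene sit1 (AO090005000471), named for siderophore iron transport, stood at 38.4 and 30.4 CPM in agar DTT, 499 and 340.2 CPM in agar control, 354 and 369.6 CPM in liquid DTT, and 42.6 and 65.9 CPM in liquid control. Agar control and liquid DTT were the high conditions, and neither overlapped the low ones. Its effect was -3.61 on agar and 2.74 in liquid, both called, and the difference was -6.35 ± 0.71. That difference had a BH-adjusted p of 0.0799 in edgeR, and of 0.0269 with the block (-6.34 ± 0.60). Without each library in turn the difference stayed between -6.66 and -6.04.

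The siderophore transporter gene mirB (AO090701000329) stood at 0.490 and 2.16 CPM in agar DTT and 25.6 and 24.7 CPM in agar control, against 1.13 and 0.211 CPM in liquid DTT and 0.178 and 0 CPM in liquid control. In liquid these levels rest on 7 reads with DTT and 1 read without, a ratio of 7.42 with a 95% interval of 0.953 to 334.4 for counting error alone, so its liquid effect was hardly measurable. The difference of -6.94 ± 1.67 was not called (edgeR, BH-adjusted p = 0.22). For sidJ (AO090103000170), which in A. fumigatus encodes an esterase that opens iron-loaded siderophores, levels were 4.08 and 1.17 CPM in agar DTT, 83.2 and 52.1 CPM in agar control, 1.81 and 5.91 CPM in liquid DTT, and 1.25 and 6.25 CPM in liquid control. Only the untreated agar libraries stood high, and in liquid the treated and control libraries overlapped. The effect of DTT on sidJ was -4.72 ± 0.96 on agar and 0.05 ± 0.86 in liquid.

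A further transporter gene, sit2 (AO090005000166), had 53.4 and 24.5 CPM in agar DTT, 711 and 622 CPM in agar control, 206 and 219 CPM in liquid DTT, and 67.8 and 519 CPM in liquid control. Its untreated liquid libraries lay on either side of the treated ones, so the liquid effect of -0.46 ± 0.82 rests on discordant replicates, while on agar sit2 fell by 4.10 ± 0.93. Without liquid control replicate 2 the difference for sit2 was -5.70, against -3.64 with all libraries. Leaving out each library in turn placed it between -5.70 and -2.80. The ferroxidase gene fetC (AO090102000589) of reductive uptake had 12.6 and 19.8 CPM in agar DTT, 57.4 and 66.5 CPM in agar control, 110.2 and 43.7 CPM in liquid DTT, and 23.6 and 46.8 CPM in liquid control. On agar the treated libraries were below both controls, whereas in liquid the conditions overlapped, and neither effect was called without the block (-1.93 ± 0.57 on agar and 1.12 ± 0.55 in liquid). The transporter gene mirD (AO090103000165) and sidH (AO090103000168), which in A. fumigatus encodes an enzyme of extracellular siderophore synthesis, had differences of -2.88 and -4.55. Without liquid control replicate 2 these were -5.41 and -9.27, and without liquid DTT replicate 1 that of sidH was -2.91. Leaving out each library in turn placed mirD between -5.41 and -2.01. In sidH all liquid libraries were at 1.36 CPM or less.

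Other iron genes differed less. The synthetase genes sidD and sidC had differences of -1.53 and -1.03, and the transporter gene mirC one of -1.25. Leaving out 1 library placed sidD between -2.23 and 0.01, sidC between -2.19 and -0.38 and mirC between -1.79 and -0.81. The regulator genes hapX, whose product represses iron use under iron shortage, and sreA, a repressor of iron uptake, had differences of -0.68 and 0.09. None of these 5 had an unadjusted p under 0.05. Summed over the 12 genes, the level was 494 and 539 CPM in agar DTT, 1913 and 1677 CPM in agar control, 1225 and 1485 CPM in liquid DTT, and 397 and 1162 CPM in liquid control. The agar conditions were well separated, and the liquid control libraries differed from each other mainly through sit2. Outside the list, mrsA (AO090003000367), which in A. fumigatus encodes a mitochondrial iron carrier, had 31.2 and 51.9 CPM in agar DTT, 16.9 and 28.9 CPM in agar control, 222 and 71.9 CPM in liquid DTT, and 5.71 and 10.3 CPM in liquid control. It rose in liquid (4.18 ± 0.69) and was not called on agar (0.86 ± 0.61). The difference was -3.32 ± 0.88 and was not called.

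**Figure D2:**
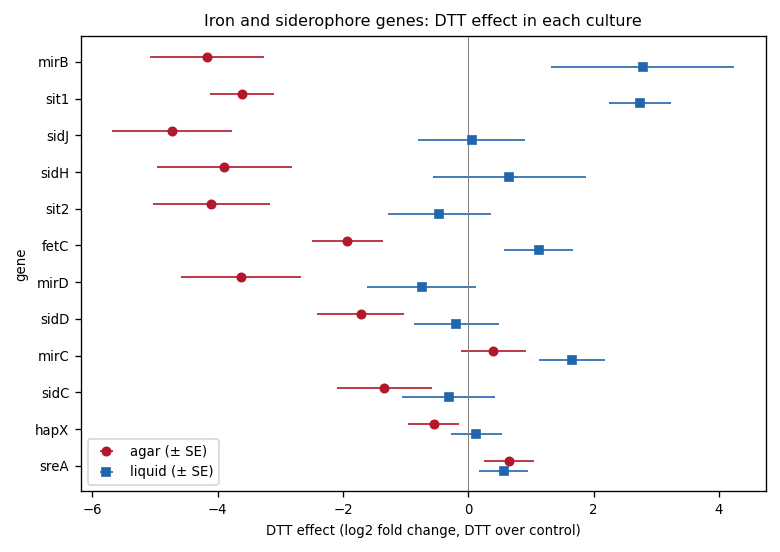
Effect of DTT (log2 fold change of DTT over control, ± SE) on agar (red circles) and in liquid (blue squares) for the 12 tested genes of iron and siderophores, ordered by the difference. The agar value lies to the left of the liquid value in 11 of 12 genes, and sreA at the bottom is the exception.

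The 23 genes called with the block fell into a few shapes. The main shape above 0, in 6 of 14 genes, was a transcript that rose on agar and was not called in liquid, and in 5 of the 6 untreated agar mycelium alone was low. Among these 5 was och3 (AO090010000615), of a family of mannosyltransferase genes that extend N-glycans in the Golgi. It stood at 12.7 and 16.7 CPM in agar DTT, 1.55 and 1.48 CPM in agar control, 10.2 and 9.19 CPM in liquid DTT, and 21.9 and 17.3 CPM in liquid control. The untreated agar libraries were the lowest by a wide margin. With the block the difference for och3 was 4.30 ± 0.60 (edgeR, BH-adjusted p = 0.0431, and 0.0917 without the block). AO090120000429 had 168 and 157 CPM in agar DTT, 7.22 and 13.9 CPM in agar control, 221 and 218 CPM in liquid DTT, and 308 and 296 CPM in liquid control, with a difference of 4.42 ± 0.56. With DTT the cultures lay close together, whereas without DTT they were far apart.

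The neighbours AO090023000430 and AO090023000431 had the highest levels of this kind. AO090023000430 stood at 2249.8 and 928 CPM in agar DTT, 9.46 and 2.00 CPM in agar control, 1352 and 526 CPM in liquid DTT, and 2247.8 and 129.6 CPM in liquid control. The untreated liquid libraries lay on either side of the treated ones, and replicate 1 was the higher in every condition. With the block the difference was 8.03 ± 1.13 for AO090023000430 and 8.07 ± 1.03 for AO090023000431. Without liquid control replicate 1 the differences of the fit without the block were 5.29 for AO090023000430 and 5.42 for AO090023000431, against 8.47 and 8.27 with all libraries. AO090010000613 (4.55 ± 0.58) and AO090023000536 (3.86 ± 0.54) were the last of the 6. AO090023000536 was the exception, since agar stayed far below liquid under DTT as well, at 37.7 and 18.4 CPM in agar DTT against 534 and 296 CPM in liquid DTT.

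In 4 genes DTT moved the transcript up on agar and down in liquid, with the block. AO090023000331 stood at 154 and 51.3 CPM in agar DTT, 13.4 and 4.00 CPM in agar control, 4.97 and 1.48 CPM in liquid DTT, and 16.6 and 12.8 CPM in liquid control, a difference of 6.05 ± 0.63. AO090001000262 stood at 39.0 and 59.3 CPM in agar DTT, 14.8 and 22.02 CPM in agar control, 2.26 and 1.80 CPM in liquid DTT, and 23.6 and 15.6 CPM in liquid control, a difference of 4.71 ± 0.63. In AO090001000262 the untreated libraries of the cultures overlapped, and the treated libraries moved apart from them in opposite directions. AO090010000579 had the largest difference of the 4, 9.02 ± 1.29, with 253.9 and 23.8 CPM in agar DTT against 1.89 and 2.21 CPM in agar control. In liquid it had 1.58 and 0.422 CPM with DTT against 40.5 and 3.51 CPM without. The libraries of a condition lay far apart there, and the difference was 11.4 within the 500 bp libraries but 5.75 within the 200 bp libraries. Without the block its liquid effect was not called. In AO090102000376 the 200 bp library exceeded the 500 bp library several-fold in each condition (36.4 and 203 CPM in agar DTT, 3.61 and 17.0 CPM in agar control, 13.6 and 76.9 CPM in liquid DTT, 37.1 and 179.9 CPM in liquid control). Its difference was 4.80 ± 0.44 with the block, and its BH-adjusted p in edgeR was 0.0269 with and 0.349 without it. Without agar DTT replicate 2 the difference was 3.12 in the fit without the block, against 4.78 with all libraries.

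In the remaining 4 genes above 0 the transcript fell in liquid, and on agar it was not called in 3 and fell less in 1. AO090023000386 stood at 17.8 and 15.7 CPM in agar DTT, 33.0 and 33.0 CPM in agar control, 0.226 and 0.106 CPM in liquid DTT, and 91.2 and 26.5 CPM in liquid control. In liquid this was 2 reads with DTT against 753 without, a ratio of 0.00282 with a 95% interval of 0.00034 to 0.0102 for counting error alone. AO090026000355, which fell in both cultures, stood at 8.16 and 11.1 CPM in agar DTT, 29.2 and 45.5 CPM in agar control, 0.226 and 0.317 CPM in liquid DTT, and 46.6 and 112 CPM in liquid control. The treated agar libraries kept a level that the treated liquid libraries did not approach. The 2 other genes were AO090020000542 (5.05 ± 0.70) and eaf1 (AO090023000819), whose yeast namesake scaffolds a histone acetyltransferase complex. Levels of eaf1 were 67.4 and 153 CPM in agar DTT, 68.3 and 131 CPM in agar control, 8.13 and 26.4 CPM in liquid DTT, and 87.6 and 213 CPM in liquid control, so that liquid DTT alone was low. Its difference was 3.28 ± 0.46.

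Below 0, the commonest shape was a transcript high in untreated agar mycelium alone, in 4 of 9 genes, that fell on agar and was not called in liquid. AO090011000926 stood at 2.45 and 3.42 CPM in agar DTT, 75.5 and 180.2 CPM in agar control, 6.55 and 6.97 CPM in liquid DTT, and 7.14 and 11.8 CPM in liquid control, a difference of -4.92 ± 0.55. AO090010000729 had 18.9 and 25.4 CPM in agar DTT and 199.8 and 129 CPM in agar control, against 25.1 and 20.2 CPM in liquid DTT and 10.9 and 12.8 CPM in liquid control. Under DTT its agar libraries overlapped the liquid ones. AO090026000037 (-4.71 ± 0.67) and AO090011000310 (-5.88 ± 0.77) had the same shape. For AO090011000310 the liquid effect rests on few reads, 3 and 26 in liquid DTT against 1 and 15 in liquid control. AO090038000315 shared the opposite calls of sit1, with 11.1 and 4.95 CPM in agar DTT, 239.6 and 29.1 CPM in agar control, 86.5 and 19.0 CPM in liquid DTT, and 16.1 and 5.81 CPM in liquid control. The insert sizes differed widely within a condition there, but both gave a difference below 0. Without agar control replicate 1 the difference was -4.13 in the fit without the block, against -6.35 with all libraries.

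The last 3 genes below 0 rose in liquid, where untreated levels were at most 1.07 CPM. For fmpC (AO090003001279), an fmp gene of secondary metabolism, 1 and 2 reads were counted in agar DTT, 4 and 6 in agar control, 72 and 179 in liquid DTT, and 0 and 0 in liquid control. Against a floor of 3 reads over both liquid controls, fmpC was at least 88.7-fold higher in liquid DTT. On agar its ratio of DTT to control was 0.266, with a 95% interval of 0.0471 to 1.03 for counting error, which includes no change. AO090023000688 stood at 87.0 and 86.4 CPM in agar DTT, 49.2 and 47.6 CPM in agar control, 478 and 108 CPM in liquid DTT, and 1.07 and 0.877 CPM in liquid control, a difference of -7.18 ± 0.87. AO090010000708 rose in both cultures, to 85.2 and 102 CPM in agar DTT against 3.27 and 5.27 CPM in agar control, and to 244 and 157 CPM in liquid DTT against 0 and 0.110 CPM in liquid control. In both AO090023000688 and AO090010000708 the gap between the cultures was set by the untreated liquid libraries, which held almost no reads.

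**Figure D3:**
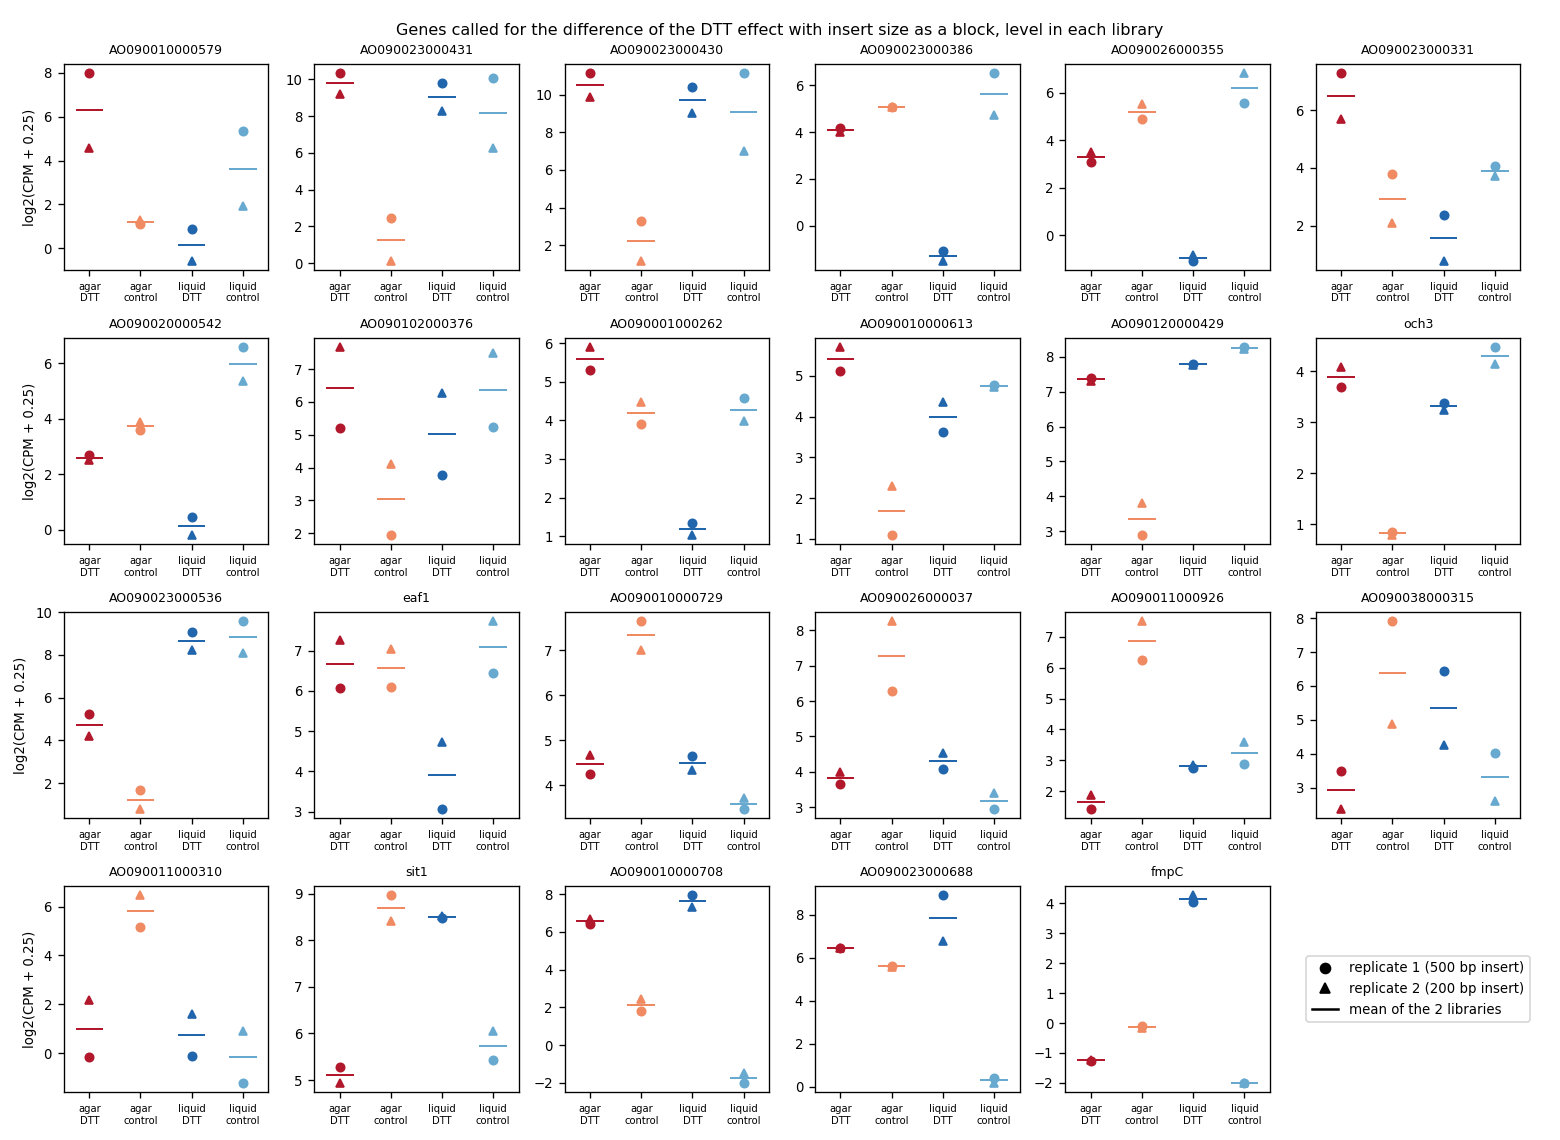
Level of the 23 genes called for the difference with the insert size as a block, as log2(CPM + 0.25) in each library, with the mean of the 2 libraries of a condition as a line. The plots run from the most positive difference at the upper left (AO090010000579) to the most negative (fmpC), and in och3 and AO090120000429, for example, untreated agar is the low condition.

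Setting agar against liquid within a treatment describes the same genes from another side. For the 23 genes the median distance between the cultures was 1.76 log2 units under DTT and 3.69 without DTT, and the cultures lay closer together under DTT in 14 of the 23. Over all tested genes these medians were 0.75 and 0.63, and 44.2% lay closer under DTT. In the fit without the block agar and liquid differed by a called amount in 9 of the 23 under DTT and in 14 without DTT. Over all 9438 tested genes these counts were 278 and 367. The same libraries chose the 23 genes, so these values carry no test.

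Gene order along the genome gave a further description of the same differences. Using the gene order of the reference assembly, and a rule chosen after values had been seen, stretches were sought in which at least 3 consecutive tested genes had a difference of the same sign with an unadjusted p under 0.05. There were 23 stretches with 72 of the 9438 tested genes, 19 above 0 and 4 below, and the longest held 4 genes. The rule requires neighbours to share the sign, so their likeness within a stretch is no separate support. Whether there were more stretches than an arbitrary gene order would give was not tested. Neighbouring genes can share reads where transcripts overlap, and the labels do not mention strand.

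In 3 of the stretches there were genes called with the block. In AO090001000260, AO090001000261 and AO090001000262 the treated liquid libraries had nearly no reads for the first 2 (2 against 222, and 3 against 134 reads without DTT), while agar levels were 8.18 to 12.1 CPM in agar DTT and 9.11 to 17.1 CPM in agar control. The stretch of AO090023000429, AO090023000430 and AO090023000431 repeated the pattern of low untreated agar libraries: AO090023000429 had 1009.8 and 419 CPM in agar DTT, 38.0 and 14.0 CPM in agar control, 752.5 and 449.6 CPM in liquid DTT, and 1080.6 and 23.8 CPM in liquid control. All 3 of its genes shared the wide gap between the untreated liquid libraries. The third stretch held och3, AO090010000613 and AO090010000612. AO090010000612 stood at 23.7 and 30.3 CPM in agar DTT, 5.50 and 4.74 CPM in agar control, 17.8 and 11.9 CPM in liquid DTT, and 52.3 and 20.9 CPM in liquid control, so that all 3 neighbours were lowest in untreated agar mycelium.

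**Figure D4:**
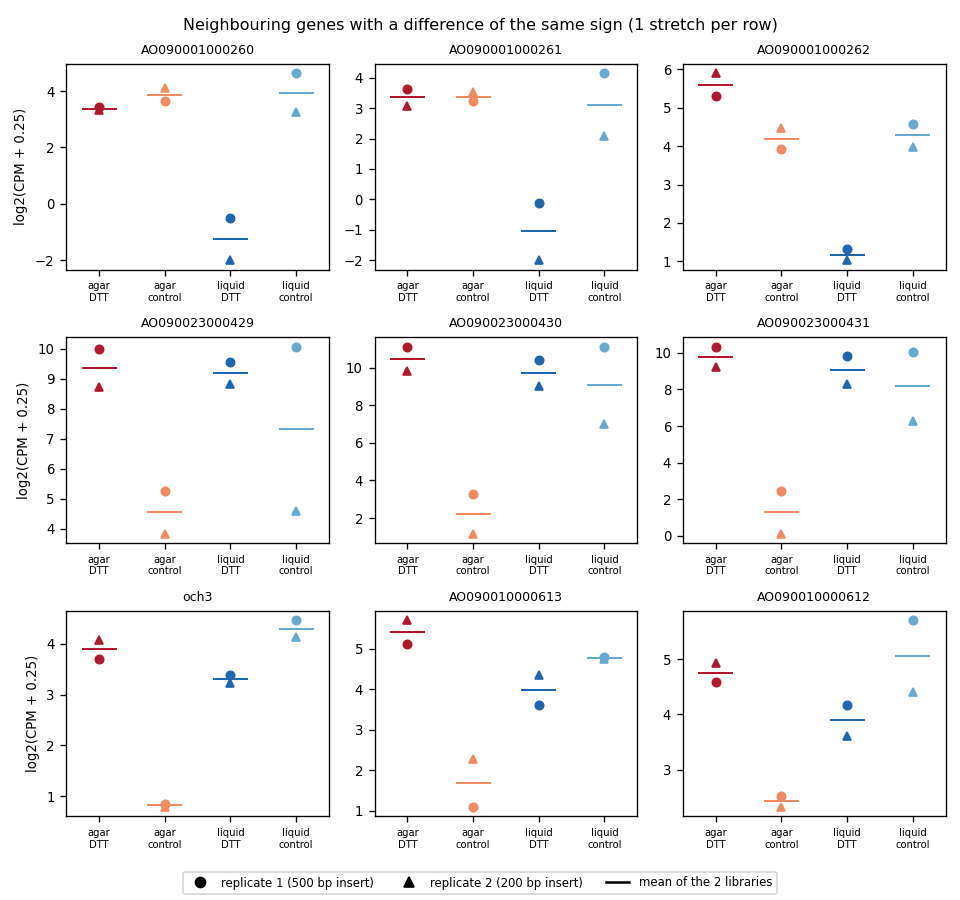
Levels as log2(CPM + 0.25) in each library for 3 stretches of consecutive tested genes, 1 stretch per row, that include genes called for the difference with the insert size as a block. Liquid DTT is the low condition in the top row, and agar control has the lowest mean in the middle and bottom rows.

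Among genes with a symbol, and with at least 20 CPM in the highest condition, 7 of the 8 with the smallest p above 0 fell in liquid and were not called on agar. This shape was common among all tested genes: 797 fell in liquid only, 278 of them with an unadjusted p under 0.05 for the difference. The GABA transaminase gene gatA (AO090701000206) had 124 and 64.8 CPM in agar DTT, 73.3 and 111 CPM in agar control, 2.48 and 1.69 CPM in liquid DTT, and 22.1 and 51.0 CPM in liquid control. It fell in liquid (-4.15 ± 0.63), the agar libraries overlapped (0.03 ± 0.53), and the difference of 4.19 ± 0.81 was not called. The gene sclB (AO090023000506), a regulator of spore formation in A. nidulans, had 14.0 and 15.7 CPM in agar DTT, 11.7 and 18.7 CPM in agar control, 7.23 and 7.18 CPM in liquid DTT, and 36.9 and 46.3 CPM in liquid control, a difference of 2.498 ± 0.61. The ER glucosidase gene cwh41 (AO090701000141), which trims new N-glycans, had 133 and 96.0 CPM in agar DTT, 129.7 and 94.8 CPM in agar control, 109.5 and 119 CPM in liquid DTT, and 582 and 542 CPM in liquid control. Its effect was 0.03 ± 0.44 on agar and -2.29 ± 0.46 in liquid. In osm1 (2.73 ± 0.60), cdcA (3.29 ± 0.76), nfr1 (2.71 ± 0.68) and cp1 (2.66 ± 0.72) the effect was below 0 in both cultures and called in liquid only without the block. With the block osm1 fell on agar too (edgeR, BH-adjusted p = 0.0235). The cyanate hydratase gene cyn1 had a difference of 3.63 ± 0.98 with no call in either culture, and with the block it fell in liquid (edgeR, BH-adjusted p = 0.0178).

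On the other side, the transporter gene mfsA (AO090038000167) had 5.22 and 11.4 CPM in agar DTT, 246 and 142 CPM in agar control, 7.90 and 12.8 CPM in liquid DTT, and 24.8 and 17.0 CPM in liquid control. It fell on agar (-4.53 ± 0.59) and was not called in liquid (-1.001 ± 0.53). The gene ccg9 (AO090003000770), whose Neurospora namesake encodes a trehalose synthase, had 67.8 and 25.2 CPM in agar DTT, 126 and 157 CPM in agar control, 156 and 77.5 CPM in liquid DTT, and 23.02 and 56.7 CPM in liquid control, a difference of -3.15 ± 0.90 with no call in either culture. The gene kat1 rose in liquid only (2.45 ± 0.44), and its difference was -2.18 ± 0.60. None of the differences for mfsA, ccg9 and kat1 was called, with or without the block.

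Other locus tags with small p that the block did not call either were AO090023000072 (no reads in liquid DTT against 73 in liquid control, at least 22.96-fold lower with a floor of 3 reads), AO090026000299 (4.9995 ± 0.82), AO090010000156 (5.77 ± 0.98), AO090020000696 (4.83 ± 0.86), AO090020000603 (-5.46 ± 0.97), AO090011000275 (-3.19 ± 0.58), AO090010000016 (-4.41 ± 0.83) and AO090102000295 (-2.71 ± 0.55). AO090010000016 fell on agar only, AO090020000603, AO090011000275 and AO090102000295 rose in liquid only, and AO090023000072, AO090010000156 and AO090020000696 fell in liquid only. AO090026000299 fell in both cultures, more in liquid.

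Gene lists other than iron lay closer to the middle of all genes. In protein glycosylation and GPI anchoring 13 of 15 tested genes had a difference above 0, with a median of 0.49, and 2 had an unadjusted p under 0.05 (och3 and cwh41), against 5.83% of all genes above 0. All 5 cytosolic ribosomal protein genes were above 0, with a median of 0.75, but 4 of the 5 had an unadjusted p over 0.05. The largest difference of the list, and the only one with an unadjusted p under 0.05, was that of rps0 (AO090012000801), of the small subunit, which had 246 and 278 CPM in agar DTT, 912 and 1367.3 CPM in agar control, 33.2 and 8.34 CPM in liquid DTT, and 539 and 344 CPM in liquid control. The level of rps0 in liquid DTT was below that of all other libraries, and its difference was 2.30 ± 0.98. With 1 library left out the difference lay between 1.62 and 3.59, the highest value without liquid DTT replicate 1. The 28 genes of ribosome assembly had a median of -0.08 and none with an unadjusted p under 0.05, against 10.6% of all genes.

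In zinc uptake 1 of 5 genes had an unadjusted p under 0.05, zrfA, with a difference above 0 (5.83% of all genes). The transporter gene zrfA (AO090003001296) had 376 and 154 CPM in agar DTT, 123 and 70.0 CPM in agar control, 1873 and 1509.7 CPM in liquid DTT, and 5399.6 and 4816.3 CPM in liquid control, a difference of 3.06 ± 0.99. Agar levels were higher with DTT than without, liquid levels were lower with it, and neither effect was called without the block. With the block zrfA fell in liquid (edgeR, BH-adjusted p = 0.0491). The neighbours zrfC (AO090005000940) and aspf2 (AO090005000939) fell in both cultures, with differences of -1.04 ± 1.08 and 0.02 ± 1.27.

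Of 28 fungal cell wall genes 22 had a difference below 0 (median -0.51), with 1 gene on each side at an unadjusted p under 0.05, a share no higher than over all genes (4.8% below 0 and 5.83% above). These were the glucanase genes exg1 (-2.52 ± 0.78) and eng2 (1.67 ± 0.73, or 1.02 without liquid control replicate 1). Of 13 tested plant wall hydrolase genes 10 were above 0 (median 1.03), and 2 had an unadjusted p under 0.05, pgxC (3.12 ± 1.16) and manF (2.18 ± 0.86), against 5.83% of all genes above 0. Levels of pgxC and manF were at most 3.39 and 10.3 CPM in any library. Single members below 0 at an unadjusted p under 0.05 were the mitochondrial chaperone gene grpE (-2.03 ± 0.66), the glutathione reductase gene glr1 (-1.45 ± 0.64, or -0.83 without liquid DTT replicate 1), the lysine synthesis gene lysB (-2.25 ± 0.71) and the regulator gene of sexual development nsdD (-1.75 ± 0.66). Single members above 0 were the sterol desaturase gene erg5 (3.59 ± 1.37) and the vacuolar mannosidase gene ams1 (2.24 ± 0.90). Without liquid DTT replicate 2 these were 8.25 and 3.83, and the lowest values with 1 library left out were 2.87 and 1.57. In secondary metabolism fmpF had a difference of 3.36 ± 1.10, while fgaCat (-2.40 ± 0.80) and nrps1 (-2.46 ± 0.98, or -0.85 without agar control replicate 1) were below 0. Of 7 gli genes (median -0.88) 2 had an unadjusted p under 0.05, gliG and gliP, both below 0 (4.8% of all genes). With 1 library left out, gliG lay between -3.03 and -2.07 and gliP between -5.64 and -1.15. The liquid effect of gliP could not be measured well. It had 66.0 and 69.7 CPM in agar DTT and 153 and 159 CPM in agar control, but 3 reads in liquid DTT and 0 in liquid control. In gliJ liquid DTT held 0 reads and liquid control 10. No list gene was called without the block, and with it sit1, och3 and fmpC were.

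**Figure D5:**
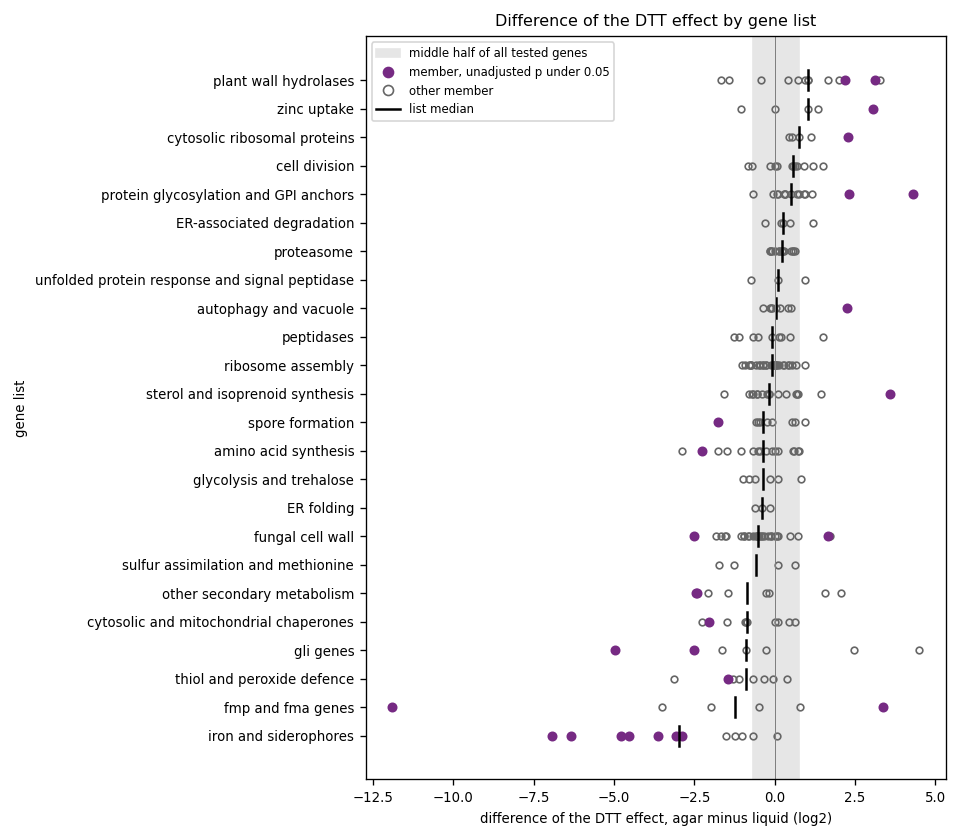
Difference of the DTT effect (log2, agar minus liquid) for each tested member of 24 gene lists, ordered by list median (black bar). Filled points have an unadjusted p under 0.05, the grey band spans the quartiles over all tested genes (-0.66 to 0.77), and the median of iron and siderophores, -2.97, is the lowest.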

How the data were processed

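Polyadenylated RNA of 8 libraries was read as 44 bp pairs. Per the file headers, the deposited values are the number of mapped reads per gene, taken as raw counts, and the fraction of each gene covered, used for coverage only. For aligner, genome build and annotation, nothing is given in the sources used here. All 11880 locus tags matched the RefSeq table of ASM18445v3, used for symbols and gene order.

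Counts were fitted with edgeR 4.0.16 (R 4.3.3): filterByExpr (minimum count 10), TMM (factors 0.73 to 1.25), glmQLFit with 1 coefficient per condition (4 residual degrees of freedom, 3 with the block) and glmQLFTest, Benjamini-Hochberg adjusted over 9438 genes. The SE is the log2 value over the root of F. The fit without the block was run on simulated counts with known differences. The fit with the block, the lists and the gene order were not tested in this way. Within each condition the libraries differed beyond sampling noise, with chi-square 166 to 246 times its degrees of freedom. The labels tie the replicate number to the insert size, and replicate differences correlated between conditions at 0.24 to 0.51. Libraries of the same number thus shared part of their variation, which the block takes up. Whether they also came from matched cultures is not stated. Intervals (exact binomial, 95%) and floors (3 reads over 2 libraries) cover counting error only.

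Members, lists and rules were chosen with earlier results of these data known. Named were, in each direction, the 10 block calls of largest difference, the 10 genes of smallest p with the same sign in both insert sizes and at least 20 CPM in the highest condition, the 8 such genes with a symbol, genes with opposite calls, and up to 4 members per list with bipA, pdiA, clxA, hacA, trr1, cat1 and treA. The block calls eaf1 and AO090023000536, the iron genes beyond 4 and the gene stretches were chosen after their values were seen. Lists for starch hydrolysis and kojic acid had no symbols to fill them. Alternatives were the block, DESeq2 1.42.0, limma 3.58.1 (voom), other scalings and filters, and each library left out.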

Additional observations from a re-analysis of the deposited data

Results flagged for a closer look

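For 23 genes the DTT effect differed between agar and liquid by a test of the difference itself, edgeR's quasi-likelihood test with the insert size as a block and a Benjamini-Hochberg adjusted p under 0.05. None passed in the same fit without the block. Above 0 (log2, agar minus liquid) these were AO090010000579 (9.02), AO090023000431 (8.07), AO090023000430 (8.03), AO090023000386 (7.28), AO090026000355 (6.15), AO090023000331 (6.05), AO090020000542 (5.05), AO090102000376 (4.80), AO090001000262 (4.71), AO090010000613 (4.55), AO090120000429 (4.42), och3 (4.30), AO090023000536 (3.86) and eaf1 (3.28). Below 0 they were fmpC (-11.9), AO090023000688 (-7.18), AO090010000708 (-6.81), sit1 (-6.34), AO090011000310 (-5.88), AO090038000315 (-5.61), AO090011000926 (-4.92), AO090026000037 (-4.71) and AO090010000729 (-3.79). For fmpC the fitted value depends on the prior count, since liquid control held no reads.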

How the results depend on the processing

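Without the block 0 genes were called for the difference, also with DESeq2's size factors, upper quartile scaling, rRNA genes removed, the stricter filter and robust dispersion. The count was 23 with the replicate block, 26 with no filter, 220 with DESeq2 and 1 with limma-voom. With each library left out it was 0 to 7, the 7 arising without liquid DTT replicate 2. Of settings added after the data were seen, the block gave 20 with DESeq2's size factors, 24 with rRNA genes removed, 24 with the stricter filter, 472 with DESeq2 and 2 with limma-voom. With the block and each library left out it was 0 to 249: 249 without liquid DTT replicate 2, 17 without liquid control replicate 2, 11 without agar DTT replicate 1, 4 without liquid DTT replicate 1, 1 without agar control replicate 2, 1 without liquid control replicate 1, and 0 without agar DTT replicate 2 or agar control replicate 1. The cause was not tested. A condition left with 1 library is assumed to vary like the others.

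Agar calls (878) were 1897 with the block, 1672 with DESeq2 and 6 to 1207 with each library left out. Liquid calls (1885) were 2984 with the block and 614 to 1581 with each library left out. Genes called in both in the same direction (520) were 1200, 1016 and 4 to 557 under these settings in that order. The lowest agar count and the lowest shared count arose without agar control replicate 1, and the lowest liquid count without liquid control replicate 1. In the lists, the block and the fit with no filter each called 1 gene of iron, 1 of glycosylation and 1 of fmp and fma. DESeq2 called 5 of iron, 1 of zinc, 2 of glycosylation and 1 of fmp and fma, limma-voom called 1 of iron, and the iron count was 0 to 1 with each library left out. Of 1291 values of 76 genes under the alternatives 15 changed sign, in 6 genes. Most of the 76 were followed for a block call or a small p, which makes a change of sign unlikely. The 6 were followed whatever their p, as genes always named or as iron genes. The count is therefore no measure of how stable genes are in general. The difference for cat1 was 0.0615 with the block, 0.0362 with upper quartile scaling and 0.0282 with limma-voom. With each library left out it was -0.57 to 0.77 for cat1, -0.70 to 0.75 for clxA, -0.22 to 0.54 for hacA, -0.13 to 0.32 for sreA, -2.23 to 0.0101 for sidD and -0.0278 to 1.38 for treA. Fitted values of genes with under 10 reads in a condition are limited by depth.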

Other observations

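Of the 23 stretches of neighbouring genes found after values were seen, 20 held no gene called with the block. In AO090124000050 to AO090124000053, the agar libraries lay between 8.45 and 21.7 CPM in agar DTT and between 10.4 and 19.8 CPM in agar control, while liquid levels were 11.3 to 58.2 CPM in liquid DTT against 106 to 226.8 CPM in liquid control. In AO090011000044 (-4.11), AO090011000045 (-4.80) and AO090011000046 (-4.07) the untreated agar libraries were the highest for each gene. They stood at 45.4 to 104.9 CPM in replicate 1 but only 12.01 to 20.9 CPM in replicate 2. Agar DTT reached at most 4.73 CPM, and the liquid libraries lay between 0.714 and 12.7 CPM. In AO090701000435 (5.26), AO090701000436 (5.85) and AO090701000437 (6.93) agar control was near 0, at 0 to 1.38 CPM, against 72.9 to 1014.5 CPM in agar DTT. In AO090010000646 to AO090010000649 liquid control was the low condition, at 0 to 1.96 CPM against 2.32 to 25.1 CPM in liquid DTT. In AO090012000673 to AO090012000675 the liquid rise rested mainly on liquid DTT replicate 1, where AO090012000675 reached 5584.9 CPM, against 210.1 CPM in liquid DTT replicate 2.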
